A study of Zea mays with 12 samples.

Results

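The genes described here encode the maize proteins that write, read and remove chemical marks on DNA and histones and that assemble nucleosomes. They were chosen by name: a gene was taken when its symbol or a synonym, in the array's annotation or in the RefSeq gene table, was a chromatin stem (mbd, sdg, hda, hdt, hac, hag, hxa, srt, dmt, met, mez, chr, chb, chc, chd, nfa, nfc, nfd, gte, epl, brd or vef) followed only by digits. The rule found 50 genes with 66 probe sets, out of 1108 named genes with 1452 named probe sets and 17555 probe sets in all. A probe set reads transcript sequence with several short probes, and whether these also match other transcripts or genes was not checked. Of the 50 genes 42 had 1 probe set and 8 had several. The stems srt, chr, chb, chc and chd gave no named gene here.

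Whole embryos were taken at 19 days after pollination from field-grown plants of 4 genotypes: the hybrid B73xMo17, the reciprocal hybrid Mo17xB73, the inbred line B73 and the inbred line Mo17. B73 and Mo17 are parents of much hybrid maize. Both hybrids have 1 nuclear genome from each inbred, and crosses are taken to be written seed parent first, as is usual. Each genotype had 3 biological replicates on 1 array each, and replicates of the same number were collected on the same date. No treatment was applied, and no genotype carried a transgene or an induced mutation per the labels. The comparisons ask at which of these genes the inbreds differ in signal, whether the hybrids lie at the mean of both inbreds, and whether the reciprocal hybrids differ. Probe sequences were not checked for differences between B73 and Mo17, so a part of any signal difference that comes from them was not tested.

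DNA in plant chromatin carries methyl groups placed by DNA methyltransferases, and proteins with a methyl-binding domain can recognise them. Genes were placed in that family by name, and binding by each protein was not tested. Histone tails are acetylated by acetyltransferases, which is usual at transcribed genes, and the mark is removed by deacetylases. SET-domain proteins methylate histones, and the Polycomb repressive complex, one kind of SET-domain machine, keeps developmental genes silent. Histone chaperones and HMG-box proteins place histones on DNA and remodel nucleosomes, with much of that work done in dividing tissue such as a growing embryo.

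Signals below are log2 of the quantile-normalized probe set intensity, given in the order of replicates 1 to 3, and differences are log2 differences with their standard error (SE). A call is an adjusted p under 0.05 from limma, with the Benjamini-Hochberg adjustment over the 17555 probe sets. Levels are compared between genotypes within a probe set only. The median deposited array signal ran between 194.8 and 316.6, and normalization removed this difference in scale. Of 10 embryo marker genes, 9 had a mean above the 25th percentile of all values (log2 4.82) in all 4 genotypes, and the exception was 1 probe set annotated GLB1. Of these 10 genes 5 were called higher in B73 and 1 higher in Mo17, where 16.5% and 19.6% of all probe sets were called. The summed signal of the 10 genes was 42164 to 44327 in B73xMo17 and 44218 to 48791 in Mo17xB73. It was 37769 to 41341 in B73 and 36580 to 43892 in Mo17. Another 16 genes were markers of the endosperm, the neighbouring kernel tissue. They include storage protein and starch genes, transfer layer genes and regulators. Their summed signal was 62652 to 66661 in B73xMo17, 56231 to 65384 in Mo17xB73, 55320 to 62798 in B73 and 40826 to 57981 in Mo17. All 16 endosperm genes had a mean at or above the 25th percentile in all 4 genotypes. Of them 4 were called higher in B73 and 4 higher in Mo17. The part of these embryo and endosperm differences in the results below was not tested. In whole embryos, fewer cells of a type and less RNA per cell cannot be told apart.

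Differences between the inbreds at chromatin modification genes were mostly small. B73 and Mo17 differed at 20 of the 66 probe sets (30.3%), where 36.0% of all probe sets were called. Of those 20, 14 were higher in B73 (21.2% of the members, 16.5% of all probe sets) and 6 were higher in Mo17 (9.09% of the members, 19.6% of all). They belong to 20 genes, 14 higher in B73 and 6 higher in Mo17, and the other 30 genes had no call. The arrays of B73 and Mo17 did not overlap at 27 member probe sets (40.9%), against 47.0% of all. The median absolute difference was 0.09 over the members and 0.35 over all probe sets, and 0.37 over the called members against 0.72 over all called probe sets. A 2-fold difference was reached by 2 of the 20 called members, 10% of them, and by 37.4% of all called probe sets. Replicates were also closer at the members, with a median within-group SD of 0.10, against 0.19 over all probe sets. The members were brighter as well, with a median log2 signal of 9.63, against 7.82 over all probe sets. These contrasts were not matched for brightness, and its part in the smaller spread and differences was not tested.

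At all 20 called members the arrays of B73 and Mo17 did not overlap, which by itself gives 1 direction on each of the 3 collection dates. With medians centred in place of quantile normalization the count was 10 higher in B73 and 8 higher in Mo17, and the calls at mbd105, mbd109, mbd111 and nfc104 ended. Without the intensity trend in eBayes, those at HDA108, hdt103, mbd105, mbd109 and mbd111 ended. With the values as deposited, which keep the differences in array brightness, 3 probe sets were higher in B73 and 1 in Mo17. Without B73 replicate 2, or without Mo17 replicate 3, 13 probe sets were called. The share of all probe sets called changed as well. It was 36.4% with median centring, 33.8% without the trend and 16.9% with the values as deposited. Without B73 replicate 2 it was 30.7%, and without Mo17 replicate 3 it was 32.3%. Calls at 4 genes, hac108, hag101, hxa102 and sdg110, held under each of the settings tried in which they were tested, and 11 of the 20 calls held without any single array. In the plot of all member differences, 4 of 6 acetyltransferase and 5 of 7 methyl-binding genes are called on the B73 side, and most assembly genes lie near 0.

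**Figure D1:**
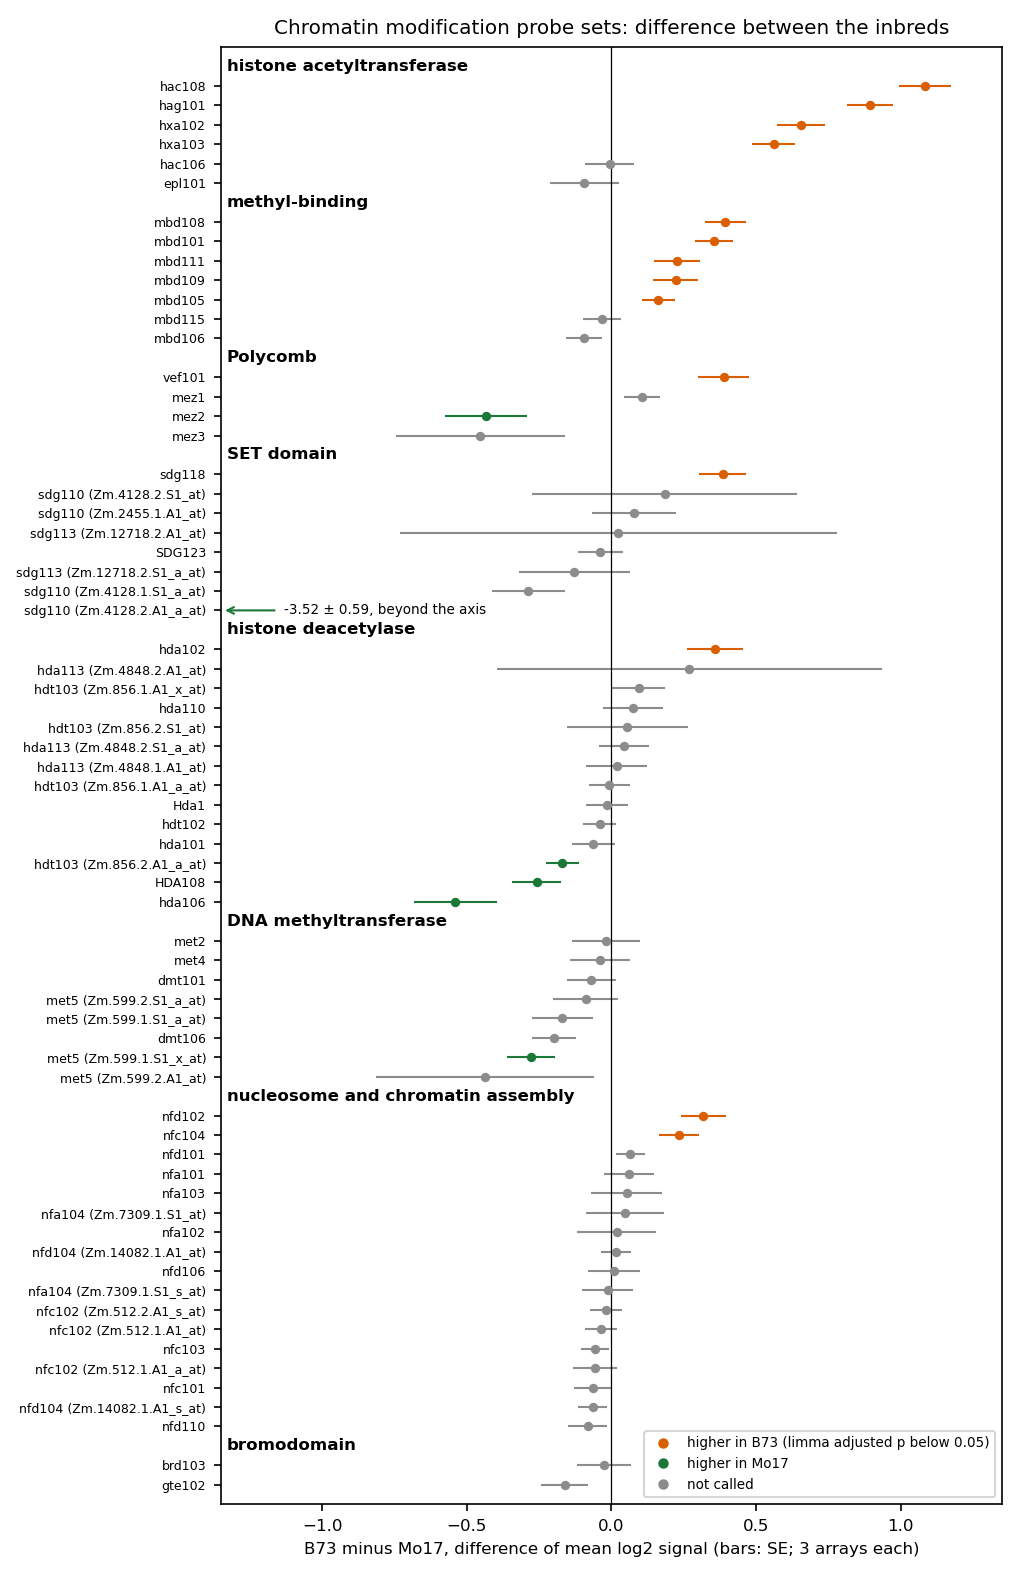
Difference between B73 and Mo17 in mean log2 signal for the 66 chromatin modification probe sets, grouped by protein family, with bars for the SE (3 arrays each) and colours for the calls. The 14 probe sets higher in B73 include 4 acetyltransferase and 5 methyl-binding genes, and 1 sdg110 probe set at -3.52 lies beyond the axis.

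Most histone acetyltransferase genes were higher in B73. Of 6 genes with 1 probe set each, 4 were called higher in B73, none was called higher in Mo17, and 2 were not called. Over all probe sets 16.5% were called higher in B73 and 19.6% higher in Mo17. The family's median difference was 0.61, against -0.06 over all probe sets. The 4 calls held without any single array and with median centring, and 3 of them held with the values as deposited, where hxa103 had an adjusted p of 0.075.

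Among members with all group means above the 25th percentile, hac108 had the largest difference. It is a MYST-type acetyltransferase gene with the synonym ham101, and its log2 signal was 9.40, 9.38 and 9.29 in B73xMo17, 9.41, 9.19 and 9.25 in Mo17xB73, 9.73, 9.73 and 9.59 in B73, and 8.64, 8.73 and 8.44 in Mo17. All 6 hybrid arrays lay between the B73 and the Mo17 arrays. B73 exceeded Mo17 by 1.08 ± 0.09, a 2.12-fold difference (adjusted p = 4.1e-07). The hybrid mean fell below B73 by a log2 difference of -0.36 ± 0.08 (adjusted p = 0.0054) and exceeded Mo17 by 0.72 ± 0.08 (adjusted p = 1.3e-05).

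Next came hag101, the maize Gcn5-type acetyltransferase, which acts on histone tails in coactivator complexes. It read 9.35, 9.08 and 9.22 in B73xMo17, 9.18, 9.05 and 9.14 in Mo17xB73, 9.35, 9.36 and 9.43 in B73, and 8.43, 8.49 and 8.54 in Mo17. All hybrid arrays lay between the inbreds, although 1 B73xMo17 array and the lowest B73 array are equal after rounding. The inbreds differed by 0.89 ± 0.08, or 1.86-fold (adjusted p = 1e-06). Hybrids exceeded Mo17 by 0.68 ± 0.07 (adjusted p = 8e-06) and had a difference of -0.21 ± 0.07 from B73 that was not called (adjusted p = 0.055, and 0.048 with the replicate block).

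A partner of Gcn5 showed the same order of inbreds. The product of hxa102 is an Ada2-type adaptor, which binds Gcn5 and helps it to acetylate nucleosomes. The gene read 9.39, 9.33 and 9.34 in B73xMo17, 9.08, 9.12 and 9.35 in Mo17xB73, 9.49, 9.54 and 9.62 in B73, and 8.82, 8.90 and 8.97 in Mo17. All hybrid arrays lay between those of the inbreds. B73 was higher than Mo17 by 0.65 ± 0.08, or 1.57-fold (adjusted p = 2.4e-05). The hybrid mean was below B73 by a difference of -0.28 ± 0.07 (adjusted p = 0.015, up to 0.071 without B73 replicate 2 or 3) and above Mo17 by 0.37 ± 0.07 (adjusted p = 0.0018).

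At hxa103, placed in this family by its name, signals were 8.67, 8.58 and 8.58 in B73xMo17, 8.57, 8.57 and 8.57 in Mo17xB73, 8.79, 8.84 and 8.84 in B73, and 8.25, 8.21 and 8.32 in Mo17. The hybrid arrays again fell between the inbreds. Hybrids differed from B73 by -0.23 ± 0.06 (adjusted p = 0.026, lost without any 1 of the B73 arrays, up to 0.11) and from Mo17 by 0.33 ± 0.06 (adjusted p = 0.0022). The remaining pair showed no call: hac106, with the synonym hat1, had an inbred difference of -0.01 ± 0.08, and epl101, an Enhancer of polycomb-like gene, had -0.09 ± 0.12. The 95% intervals of these 2 differences lay within -0.35 and 0.18. In the plot of acetyltransferase signals, 4 genes show Mo17 as the lowest genotype.

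**Figure D2:**
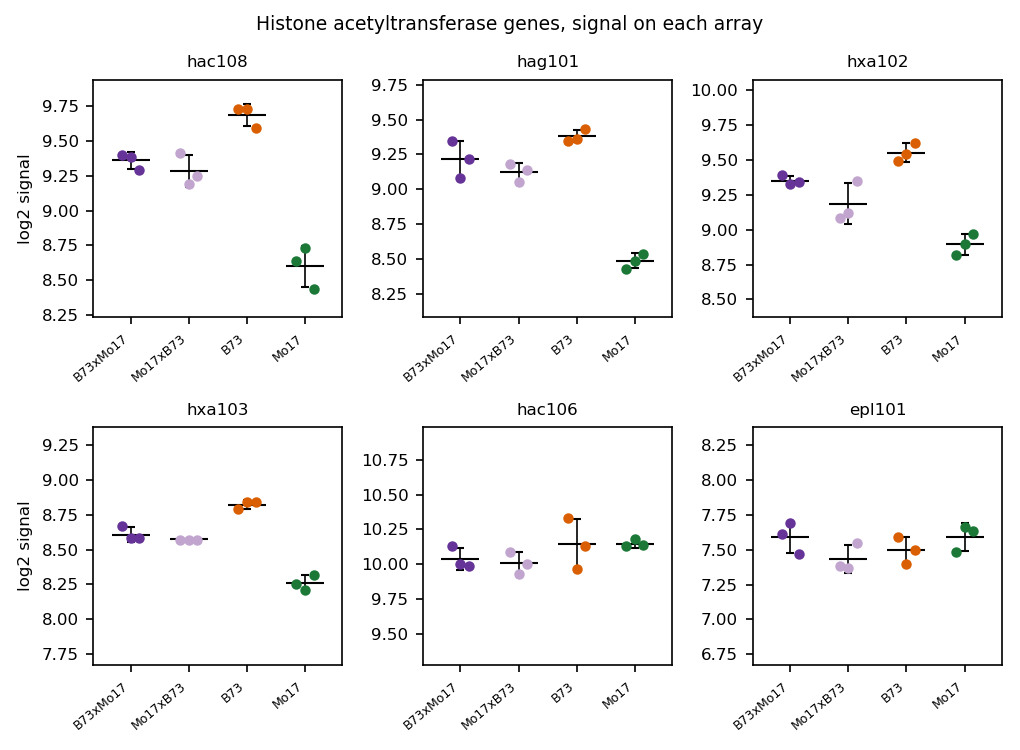
Log2 signal on each of the 12 arrays for the 6 histone acetyltransferase genes (points: arrays; line and bars: mean and SD of 3 arrays), with the same span on each vertical axis. Mo17 is below B73 on all arrays of hac108, hag101, hxa102 and hxa103, and the genotypes overlap at hac106 and epl101.

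Deacetylase genes, which act against the acetyltransferases, showed no common direction. Among 14 probe sets of 9 genes, 1 was called higher in B73, 3 were called higher in Mo17 and 10 were not called. Over all probe sets 36.0% were called, 16.5% higher in B73 and 19.6% higher in Mo17. The family's median difference was 0.01. The gene higher in B73 was hda102, an RPD3-type deacetylase. It read 9.28, 9.14 and 9.27 in B73xMo17, 9.01, 9.26 and 9.13 in Mo17xB73, 9.50, 9.59 and 9.48 in B73, and 8.96, 9.20 and 9.33 in Mo17. B73 stood above every array of the other genotypes. The inbred difference was 0.36 ± 0.10 (adjusted p = 0.011, and 0.052 without Mo17 replicate 1), and the hybrid mean differed from B73 by -0.34 ± 0.09 (adjusted p = 0.014, and 0.079 without B73 replicate 2).

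Another RPD3-type gene, HDA108, went the other way. Its signals were 9.61, 9.69 and 9.44 in B73xMo17, 9.50, 9.60 and 9.62 in Mo17xB73, 9.44, 9.46 and 9.68 in B73, and 9.73, 9.80 and 9.83 in Mo17. Mo17 was above all other arrays by a narrow margin. The difference was -0.26 ± 0.08 (adjusted p = 0.029), and the call was lost without any 1 of 4 arrays (B73 replicates 1 and 2, Mo17 replicates 2 and 3), with an adjusted p of up to 0.11.

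For hda106, a deacetylase gene, signals were 6.79, 6.76 and 6.65 in B73xMo17, 6.86, 7.00 and 6.63 in Mo17xB73, 6.70, 6.72 and 6.57 in B73, and 7.16, 7.24 and 7.21 in Mo17. Here too Mo17 was above all other arrays. B73 differed from Mo17 by -0.54 ± 0.14 (adjusted p = 0.0093), a call that held without any single array. The hybrid mean differed from Mo17 by -0.42 ± 0.12 (adjusted p = 0.027, 0.080 with median centring, up to 0.093 without any 1 of the 3 Mo17 arrays or Mo17xB73 replicate 3).

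The HD2-type deacetylases are a plant family first purified from maize embryos. Of 4 probe sets of hdt103, told apart here by the end of their identifiers, 1 was called, the one ending in 2.A1_a_at. It read 12.54, 12.63 and 12.61 in B73xMo17, 12.62, 12.51 and 12.56 in Mo17xB73, 12.64, 12.58 and 12.57 in B73, and 12.75, 12.68 and 12.86 in Mo17. Mo17 was the highest genotype there. Its inbred difference was -0.17 ± 0.06 (adjusted p = 0.03, up to 0.13 without any 1 of B73 replicates 2 and 3 and Mo17 replicates 1 and 3), and the hybrid mean differed from Mo17 by -0.19 ± 0.05 (adjusted p = 0.013, and 0.083 without Mo17 replicate 3).

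The other 3 hdt103 probe sets gave no call between the inbreds, and whether they differ from the called one was not tested. That ending in 1.A1_a_at read 12.41, 12.41 and 12.60 in B73xMo17, 12.40, 12.26 and 12.29 in Mo17xB73, 12.50, 12.42 and 12.32 in B73, and 12.38, 12.38 and 12.51 in Mo17, a difference of -0.01 ± 0.07. For the one ending in 1.A1_x_at signals were 11.80, 11.72 and 11.95 in B73xMo17, 11.70, 11.38 and 11.65 in Mo17xB73, 11.63, 11.60 and 11.77 in B73, and 11.56, 11.48 and 11.68 in Mo17, a difference of 0.09 ± 0.09. Signals of the last, ending in 2.S1_at, were 6.83, 6.94 and 6.64 in B73xMo17, 6.49, 6.22 and 6.35 in Mo17xB73, 6.53, 6.95 and 6.92 in B73, and 7.03, 6.29 and 6.91 in Mo17, a difference of 0.05 ± 0.21. The inbreds overlap in all 3. Each B73xMo17 array is above each Mo17xB73 array in these 3, while the hybrids overlap in the called one. The hybrids did not overlap at 10 of the 66 members (15.2%). The share over all probe sets was not counted, so whether this is unusual cannot be said. By limma, 9.09% of the members and 11.5% of all probe sets had an unadjusted p under 0.05 between the hybrids. The reciprocal differences of the 3 hdt103 probe sets, 0.16 ± 0.07, 0.25 ± 0.09 and 0.45 ± 0.21 in the same order, were not called (adjusted p of 0.40, 0.31 and 0.44). At the probe set ending in 2.A1_a_at the reciprocal difference was 0.03 ± 0.06 (adjusted p = 0.89). The remaining deacetylase genes, hda101, hda110, hda113, Hda1 and hdt102, were not called, and over the family's uncalled probe sets the differences ran between -0.06 and 0.27.

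Polycomb genes, with 4 probe sets, had 1 call in each direction, where 16.5% of all probe sets were called higher in B73 and 19.6% higher in Mo17. The complex joins an E(z)-type histone methyltransferase, in maize mez1, mez2 or mez3, with partners that include a VEF-domain protein, vef101, and a WD-repeat protein of the FIE type. The other 2 of the 4 member genes were not called. The VEF-domain gene vef101 read 8.42, 8.32 and 8.34 in B73xMo17, 8.21, 8.21 and 8.29 in Mo17xB73, 8.69, 8.57 and 8.43 in B73, and 8.18, 8.18 and 8.16 in Mo17. B73 exceeded Mo17 by 0.39 ± 0.09 (adjusted p = 0.0035), and all hybrid arrays lay between the inbreds. The hybrid mean was below B73 by a difference of -0.26 ± 0.08 (adjusted p = 0.033), a call lost without any 1 of 6 arrays (B73 replicates 1 and 2, Mo17xB73 replicates 1 and 2, B73xMo17 replicates 2 and 3), with an adjusted p of up to 0.17.

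The methyltransferase gene mez2 read 7.48, 7.70 and 7.76 in B73xMo17, 7.77, 7.50 and 7.66 in Mo17xB73, 7.75, 7.66 and 7.37 in B73, and 8.21, 7.83 and 8.04 in Mo17. Mo17 was above all arrays of the other genotypes, which overlapped among themselves. The inbred difference was -0.43 ± 0.14 (adjusted p = 0.028, up to 0.12 without any 1 of B73 replicates 2 and 3 and Mo17 replicates 1 and 3). The hybrid mean differed from Mo17 by -0.38 ± 0.12 (adjusted p = 0.039, up to 0.17 without any 1 of 7 arrays: B73 replicate 2, Mo17 replicates 1 and 3, Mo17xB73 replicates 2 and 3 and B73xMo17 replicates 1 and 2).

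Its relative mez3 was near the low end of the array. It read 5.17, 5.05 and 4.59 in B73xMo17, 4.62, 5.03 and 4.70 in Mo17xB73, 5.51, 5.04 and 4.92 in B73, and 5.84, 5.24 and 5.76 in Mo17. The highest hybrid array was below the lowest Mo17 array, and B73 overlapped both. The hybrid mean differed from Mo17 by -0.75 ± 0.25 (adjusted p = 0.046), a call lost with median centring (0.15), with the replicate block (0.055) and without any 1 of 8 arrays (Mo17 replicates 1 and 3, B73 replicates 2 and 3, B73xMo17 replicates 2 and 3, Mo17xB73 replicates 1 and 3), with an adjusted p of up to 0.16. Between the inbreds the difference of -0.45 ± 0.29 was not called (adjusted p = 0.26). At mez1, which is imprinted in maize endosperm, the inbreds differed by 0.10 ± 0.06 (adjusted p = 0.23) and B73xMo17 differed from Mo17xB73 by 0.14 ± 0.06 (adjusted p = 0.40).

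Both FIE-type partners were measured outside the naming rule. fie1, maternally expressed in maize endosperm, had a mean of 8.55 ± 0.37 in B73xMo17, 7.45 ± 0.33 in Mo17xB73, 8.53 ± 0.07 in B73 and 7.43 ± 0.42 in Mo17 (SD, n = 3 each), so each hybrid lay close to its seed parent. The reciprocal difference was 1.10 ± 0.22 (adjusted p = 0.039), and fie2 showed 0.01 ± 0.07 (adjusted p = 0.98).

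Among the other SET-domain genes, 8 probe sets of 4 genes, 1 was called higher in B73 and 1 higher in Mo17, against 16.5% and 19.6% of all probe sets. The gene higher in B73 was sdg118, which read 8.35, 8.34 and 8.36 in B73xMo17, 8.28, 8.19 and 8.19 in Mo17xB73, 8.62, 8.65 and 8.60 in B73, and 8.32, 8.23 and 8.17 in Mo17. B73 stood above the other 3 genotypes, whose values were close together. The hybrid mean fell below B73 by a difference of -0.34 ± 0.07 (adjusted p = 0.0041) and differed from Mo17 by 0.05 ± 0.07 (adjusted p = 0.70).

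A single probe set of sdg110 had the largest difference of all members. Its identifier ends in 2.A1_a_at, and it read 4.84, 4.89 and 3.60 in B73xMo17, 4.58, 4.64 and 4.12 in Mo17xB73, 1.29, 3.66 and 1.22 in B73, and 5.74, 5.62 and 5.36 in Mo17. All Mo17 arrays were above the 25th percentile of the array (4.82), all B73 arrays were below it, and the hybrids lay around or under it. The difference of -3.52 ± 0.59 (adjusted p = 0.00031) therefore has no firm size. With every value below the 25th percentile raised to it, the difference was -0.76 (adjusted p = 7.2e-05). Hybrids exceeded B73 by 2.39 ± 0.51 (adjusted p = 0.0053), and after the same floor by 0.02 (adjusted p = 1.0).

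The other 3 probe sets of sdg110 were not called between the inbreds. That ending in 1.A1_at read 8.32, 8.35 and 8.44 in B73xMo17, 8.33, 8.14 and 7.82 in Mo17xB73, 8.35, 8.33 and 8.70 in B73, and 8.59, 8.27 and 8.28 in Mo17, an inbred difference of 0.08 ± 0.14. For the one ending in 1.S1_a_at signals were 7.76, 7.78 and 7.60 in B73xMo17, 7.44, 7.63 and 7.59 in Mo17xB73, 7.40, 7.25 and 7.64 in B73, and 7.67, 7.66 and 7.82 in Mo17, a difference of -0.29 ± 0.13 (adjusted p = 0.097). A dim one, ending in 2.S1_at, read 3.93, 5.11 and 5.01 in B73xMo17, 4.30, 3.37 and 4.44 in Mo17xB73, 4.61, 3.69 and 4.81 in B73, and 4.37, 3.71 and 4.47 in Mo17, with all 4 group means below the 25th percentile. The inbreds overlapped in the one ending in 1.A1_at and in the dim one. In that ending in 1.S1_a_at Mo17 was above B73 on all arrays, a difference called without B73 replicate 3 (-0.39, adjusted p = 0.035). The sdg113 probe set ending in 2.A1_at read 0.88, 2.93 and 3.85 in B73xMo17, 1.59, 1.85 and 2.25 in Mo17xB73, 1.26, 2.49 and 2.20 in B73, and 1.12, 2.05 and 2.71 in Mo17, below the 25th percentile on every array. In all, 3 member probe sets had all 4 group means below that percentile and another 3 had some. The other sdg113 probe set, ending in 2.S1_a_at, had group means between 8.24 and 8.37. Its inbred difference of -0.13 ± 0.19 was not called (adjusted p = 0.66). SDG123, the remaining gene of this family, had -0.04 ± 0.08 and was not called (adjusted p = 0.76).

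**Figure D3:**
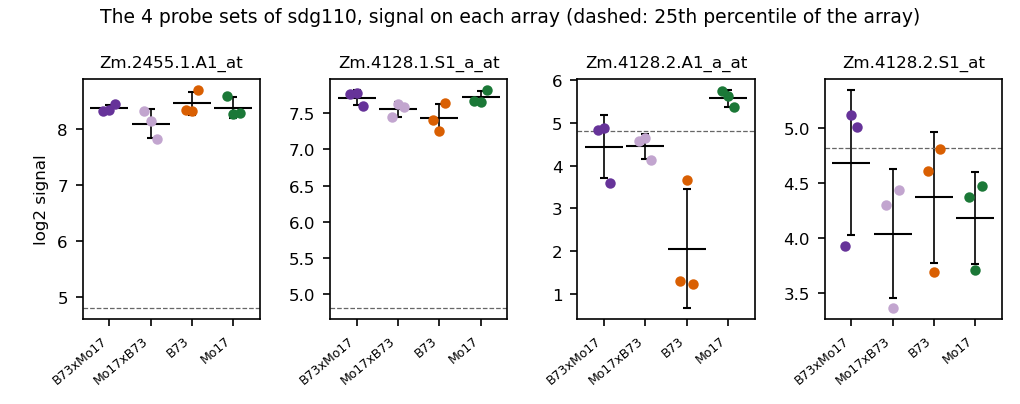
Log2 signal on each array for the 4 probe sets of sdg110 (points: arrays; line and bars: mean and SD of 3 arrays; dashed line: 25th percentile of all normalized values, 4.82). The probe set ending in 2.A1_a_at is low in B73 (1.22 to 3.66) and above the dashed line in Mo17 (5.36 to 5.74), while the differences between the inbreds at the probe sets ending in 1.A1_at and 1.S1_a_at are 0.08 and -0.29.

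Methyl-binding domain genes were called higher in B73 more often than not in the reported fit. That was not so with median centring, without the eBayes trend or with the values as deposited. Nor was it so when any 1 of the B73 or Mo17 arrays was left out. Of 7 such genes with 1 probe set each, 5 were called higher in B73 and none higher in Mo17. Over all probe sets 16.5% were called higher in B73 and 19.6% higher in Mo17. The family's median difference was 0.22. The 5 called differences were small, between 0.16 and 0.39. The count of 5 was 2 with median centring, 2 without the trend, 0 with the values as deposited, and between 2 and 5 when single arrays were left out. The 2 calls of the family with the smallest adjusted p, mbd108 and mbd101, held with median centring and without any single array.

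For mbd108 the signals were 10.75, 10.70 and 10.76 in B73xMo17, 10.79, 10.73 and 10.66 in Mo17xB73, 10.83, 10.96 and 10.80 in B73, and 10.56, 10.33 and 10.52 in Mo17. The Mo17 arrays were below all others, and the hybrids lay just under B73. The hybrid mean exceeded Mo17 by 0.26 ± 0.06 (adjusted p = 0.0066, and 0.13 with median centring). For mbd101 they were 11.06, 10.98 and 11.12 in B73xMo17, 10.96, 10.93 and 11.12 in Mo17xB73, 11.10, 11.15 and 11.23 in B73, and 10.84, 10.76 and 10.81 in Mo17. Mo17 was again below all other arrays. The hybrid mean exceeded Mo17 by 0.22 ± 0.06 (adjusted p = 0.011, 0.055 without Mo17 replicate 2 and 0.41 with median centring).

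The other 3 calls rest on smaller margins. Signals of mbd111 were 10.93, 10.93 and 10.81 in B73xMo17, 10.73, 10.58 and 10.73 in Mo17xB73, 10.85, 10.81 and 10.79 in B73, and 10.79, 10.47 and 10.51 in Mo17. B73 and Mo17 came within rounding of each other at their nearest arrays. The inbred difference was 0.23 ± 0.08 (adjusted p = 0.04), and it was lost with median centring (0.19), with the floor, and without any 1 of 6 arrays (all B73 arrays, Mo17 replicates 2 and 3 and B73xMo17 replicate 1), up to an adjusted p of 0.17. The hybrid mean differed from Mo17 by 0.19 ± 0.07 (adjusted p = 0.061, and 0.037 with the replicate block).

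Signals of mbd109 were 9.72, 9.78 and 9.89 in B73xMo17, 9.64, 9.43 and 9.46 in Mo17xB73, 9.86, 9.71 and 9.71 in B73, and 9.58, 9.57 and 9.46 in Mo17. Here each hybrid was close to its seed parent, and the hybrids did not overlap. The inbred difference was 0.22 ± 0.08 (adjusted p = 0.038, 0.077 with median centring, up to 0.14 without any 1 of B73 replicates 1 and 2 and the 3 Mo17 arrays). B73xMo17 exceeded Mo17xB73 by 0.29 ± 0.08, which had the smallest adjusted p of the members in that comparison (0.14) and was not called.

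Signals of mbd105 were 10.56, 10.61 and 10.74 in B73xMo17, 10.58, 10.61 and 10.60 in Mo17xB73, 10.75, 10.72 and 10.75 in B73, and 10.60, 10.53 and 10.61 in Mo17. B73 lay above Mo17 on all arrays, and the B73xMo17 arrays overlapped both. The difference of 0.16 ± 0.06 (adjusted p = 0.04) was lost with median centring (0.41) and without any 1 of 9 arrays, those of B73, Mo17 and Mo17xB73, up to an adjusted p of 0.14. The uncalled genes mbd106 and mbd115 had differences of -0.09 ± 0.06 and -0.03 ± 0.06. Their 95% intervals lay within -0.23 and 0.11.

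**Figure D4:**
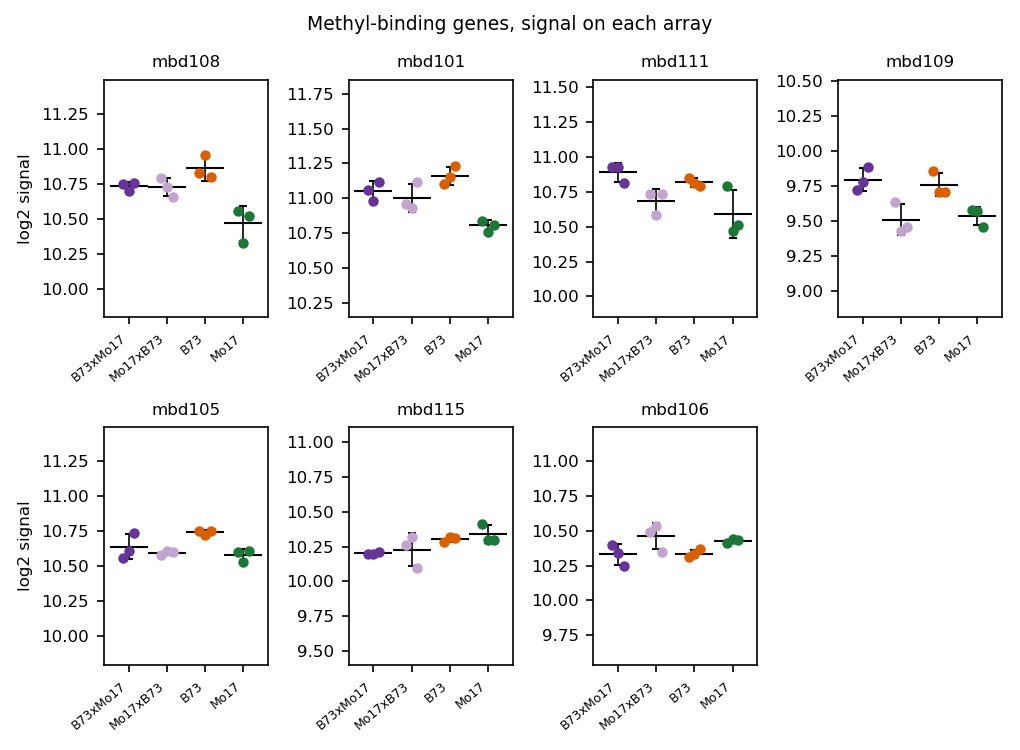
Log2 signal on each array for the 7 methyl-binding domain genes (points: arrays; line and bars: mean and SD of 3 arrays), with the same span on each vertical axis. B73 is above Mo17 at mbd108, mbd101, mbd111, mbd109 and mbd105, by 0.39 at most, and mbd109 has its hybrids apart from each other.

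Writers of DNA methylation showed few differences between the inbreds. Against 36.0% of all probe sets, 1 of 8 probe sets of 5 DNA methyltransferase genes was called, higher in Mo17. It was a probe set of met5, a chromomethylase gene, a plant-specific kind of DNA methyltransferase. Its identifier ends in 1.S1_x_at, and its signals were 9.18, 9.33 and 9.22 in B73xMo17, 9.31, 9.45 and 9.16 in Mo17xB73, 9.35, 9.39 and 9.48 in B73, and 9.64, 9.65 and 9.76 in Mo17. Mo17 was above all other arrays. The inbred difference was -0.28 ± 0.08 (adjusted p = 0.018, up to 0.072 without any 1 of B73 replicates 1 and 2 and Mo17 replicate 3), and the hybrid mean differed from Mo17 by -0.41 ± 0.07 (adjusted p = 0.001).

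A second met5 probe set was called in the hybrids against Mo17. The probe set ending in 1.S1_a_at read 9.26, 9.32 and 9.06 in B73xMo17, 9.15, 9.52 and 9.15 in Mo17xB73, 9.40, 9.40 and 9.34 in B73, and 9.45, 9.63 and 9.57 in Mo17. The Mo17xB73 arrays overlapped both inbreds. The hybrid mean differed from Mo17 by -0.31 ± 0.09 (adjusted p = 0.025, up to 0.11 without any 1 of Mo17 replicates 2 and 3 and Mo17xB73 replicates 1 and 3).

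The remaining met5 probe sets were not called. The probe set ending in 2.S1_a_at read 9.73, 9.92 and 9.80 in B73xMo17, 9.81, 10.21 and 9.70 in Mo17xB73, 10.00, 10.00 and 9.83 in B73, and 9.93, 10.05 and 10.11 in Mo17, an inbred difference of -0.09 ± 0.11. The probe set ending in 2.A1_at read 4.35, 4.98 and 5.48 in B73xMo17, 5.02, 4.94 and 4.88 in Mo17xB73, 5.27, 4.42 and 4.11 in B73, and 5.23, 5.28 and 4.60 in Mo17, near the low end of the array, a difference of -0.44 ± 0.38. Of the other genes, met2, a chromomethylase, had an inbred difference of -0.02 ± 0.12, dmt101, a MET1-type maintenance enzyme, -0.07 ± 0.08, met4 -0.04 ± 0.10 and dmt106 -0.20 ± 0.08. The last had an adjusted p of 0.057, and of 0.014 with median centring and 0.029 with the replicate block.

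Bromodomain genes, whose proteins read acetylated histones, had no call. The differences were -0.03 ± 0.09 at brd103 and -0.16 ± 0.08 at gte102, where the adjusted p was 0.15, and 0.032 with median centring. With the replicate block the hybrids exceeded B73 at gte102 by 0.18 (adjusted p = 0.033, and 0.10 without it).

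Nucleosome and chromatin assembly genes were nearly level between the inbreds. Over all probe sets 36.0% were called in either direction. Of 17 assembly probe sets of 13 genes, 2 were called higher in B73, none was called higher in Mo17, and 15 were not called. The uncalled differences ran between -0.08 and 0.07, and their 95% intervals lay within -0.28 and 0.34. The called genes were nfd102, of the HMG-box nfd group, and nfc104, of the nfc group of WD-repeat histone-binding proteins. nfd102 read 9.79, 9.65 and 9.64 in B73xMo17, 9.61, 9.80 and 9.67 in Mo17xB73, 9.99, 9.89 and 9.76 in B73, and 9.59, 9.57 and 9.53 in Mo17. B73 and Mo17 were apart with the hybrids mostly between them, and the difference was 0.32 ± 0.08 (adjusted p = 0.0053).

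Signals of nfc104 were 9.59, 9.51 and 9.54 in B73xMo17, 9.50, 9.55 and 9.58 in Mo17xB73, 9.82, 9.68 and 9.59 in B73, and 9.46, 9.45 and 9.48 in Mo17. All hybrid arrays were above all Mo17 arrays and none was above the lowest B73 array by more than rounding. The inbred difference was 0.23 ± 0.07 (adjusted p = 0.017, 0.051 with median centring, up to 0.078 without B73 replicate 1 or Mo17 replicate 2).

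In 3 more assembly genes the hybrids differed from 1 inbred. An HMG-box gene, nfd101, read 12.96, 12.90 and 12.87 in B73xMo17, 12.79, 12.95 and 12.87 in Mo17xB73, 13.06, 13.04 and 13.05 in B73, and 12.98, 12.95 and 13.02 in Mo17. All hybrid arrays were below all B73 arrays, and the difference from B73 was -0.16 ± 0.04 (adjusted p = 0.022, 0.13 with median centring, up to 0.071 without any 1 B73 array). nfa101, a NAP-type histone chaperone gene, read 12.33, 12.21 and 12.10 in B73xMo17, 12.20, 11.99 and 12.18 in Mo17xB73, 12.12, 11.95 and 11.94 in B73, and 12.08, 11.95 and 11.80 in Mo17. Hybrids exceeded Mo17 by 0.22 ± 0.08, with overlap (adjusted p = 0.047, 0.43 with median centring and up to 0.24 without any 1 of 8 arrays: replicates 1 and 2 of B73xMo17, 1 and 3 of Mo17xB73, and 2 and 3 of B73 and of Mo17).

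nfc101, an MSI1/RbAp-type gene, read 11.88, 11.97 and 11.91 in B73xMo17, 11.76, 11.92 and 11.73 in Mo17xB73, 11.97, 11.97 and 11.96 in B73, and 11.96, 11.97 and 12.16 in Mo17. The hybrid mean differed from Mo17 by -0.17 ± 0.06 (adjusted p = 0.046), a call lost without any 1 of 10 arrays, all but Mo17 replicate 1 and Mo17xB73 replicate 2, up to an adjusted p of 0.25. No other assembly gene was called in any comparison.

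Against the mid-parent, the arithmetic mean of both inbreds on the linear scale, no chromatin modification probe set was called in the hybrid mean of 6 arrays. The share of all probe sets called was 0.535%, so a list of 66 had little room for calls. At an unadjusted p under 0.05 there were 11 members (16.7%), against 12.3% of all probe sets. The smallest adjusted p was 0.061, at the met5 probe set ending in 1.S1_x_at, where the hybrid mean lay at -0.28 ± 0.06 from the mid-parent. That probe set passed with median centring (0.022), with the mid-parent taken on the log2 scale (0.015) and without Mo17xB73 replicate 2 (0.033). With the log2 mid-parent hag101 passed as well, at 0.23 above it (adjusted p = 0.03), and with the floor the dim sdg110 probe set passed at -0.41 (adjusted p = 0.016).

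The ratio of dominance to additive effect, d/a, runs linearly between -1 at the lower inbred and 1 at the higher one and equals 0 at their mean. It was taken on linear signals of the 4 members whose inbred means were at least 1.5-fold apart. It was 0.16 for hac108, 0.41 for hag101 and 0.03 for hxa102, all within 0.5 of the mid-parent, as were 76.9% of the 3768 called probe sets with that fold. At the dim sdg110 probe set it was -0.19, and -0.97 with the floor, so its position there is not settled. The median of the 4 was 0.09, and 0.158 without sdg110, against -0.09 for the 3768.

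At 18 of the 20 called members (90%) the hybrid mean lay between the inbred means, as it did at 95.3% of all called probe sets. B73xMo17 lay between them at 16 and Mo17xB73 at 15, both at 14. The 2 exceptions for the hybrid mean were met5 and hdt103, where it was below both inbreds, but not by a called difference from B73. Those differences were -0.13 ± 0.07 (adjusted p = 0.27) and -0.02 ± 0.05 (adjusted p = 0.87), so at hdt103 the hybrids were level with B73. Hybrids differed from B73 at 8 members, 1 higher and 7 lower (12.1%, against 16.4% of all probe sets). They differed from Mo17 at 14 members, 7 higher and 7 lower (21.2%, against 23.1% of all). With median centring 4 were higher and 13 lower than Mo17, where 28.3% of all probe sets were called. Both comparisons use the same hybrid arrays. With the values as deposited, 1 call was left in each, sdg110 against B73 and hac108 against Mo17. Of all probe sets 5.29% were then called against B73 and 7.58% against Mo17.

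**Figure D5:**
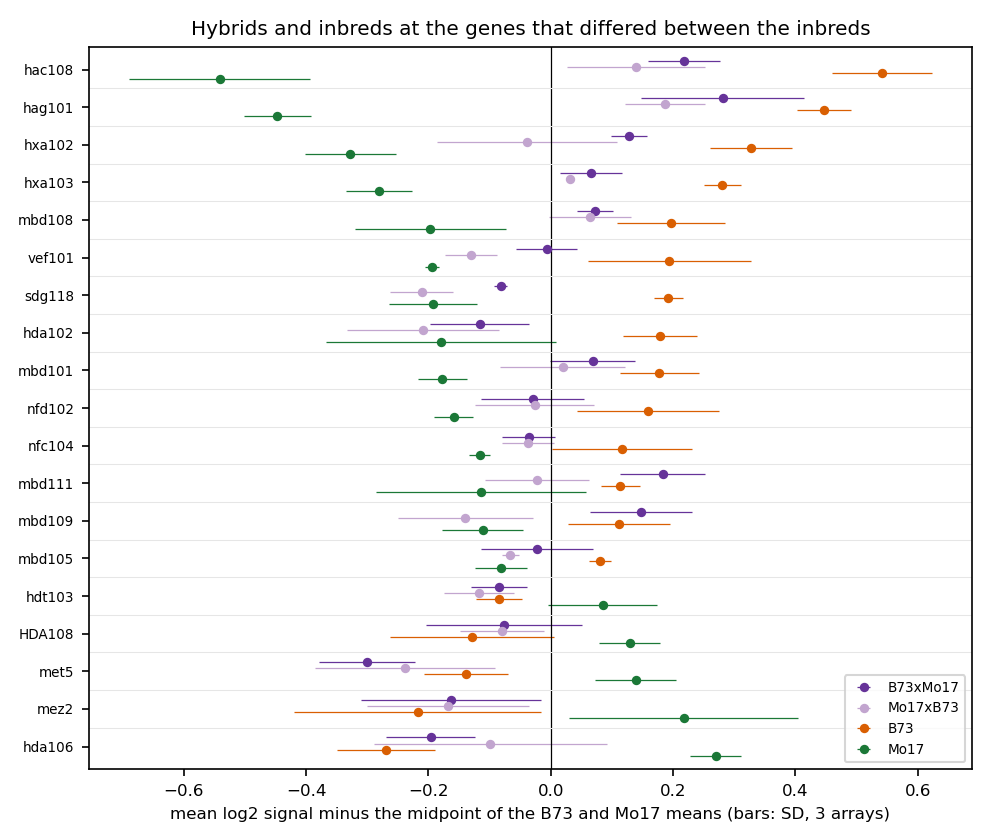
Mean log2 signal of each genotype minus the midpoint of the B73 and Mo17 means, for 19 of the 20 probe sets called between the inbreds (bars: SD of 3 arrays), ordered by the inbred difference; the dim sdg110 probe set is left out because it lies outside the axis. Both hybrids lie between the inbreds at hac108, hag101, hxa102 and hxa103, and both lie below them at met5. At hdt103 B73xMo17 is level with B73 and Mo17xB73 is slightly below it. The difference of the hybrid mean from B73 was called at neither met5 nor hdt103.

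The reciprocal hybrids were not distinguished at any member. Of 66 probe sets 0 were called by limma, 6 had an unadjusted p under 0.05 (9.09%, against 11.5% of all probe sets), and 0.872% of all probe sets were called. The 6 were mbd109, mbd111, mez1, the nfc102 probe set ending in 1.A1_at and the hdt103 probe sets ending in 1.A1_a_at and 1.A1_x_at, all higher in B73xMo17, by 0.13 to 0.29. The median reciprocal difference was 0.05 over the members and 0.01 over all probe sets.

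Other chromatin genes, 11 in number with 17 probe sets, give a setting for these values. They are histones, HMG proteins, a centromeric histone, RNA-directed silencing genes and the Polycomb genes fie1 and fie2. Between the inbreds 4 probe sets were called higher in B73 and 2 higher in Mo17, together 35.3% of the 17, against 36.0% of all probe sets. Those higher in B73 were his2b5, a histone H2B gene (6.70 ± 0.12), fie1 (1.10 ± 0.22), HMG11 (0.51 ± 0.17) and rmr7 (0.35 ± 0.09). Those higher in Mo17 were HMGIY2 (-0.29 ± 0.08) and 1 of 2 probe sets of cenH3 (-0.91 ± 0.26), the centromeric histone, whose other probe set was not called (-0.19 ± 0.10). Against the mid-parent 0 of the 17 were called.

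One group of members differed between collection dates in the same way in every genotype, a pattern picked out after its values were seen. The 5 probe sets of the NAP-type chaperone genes nfa101, nfa102, nfa103 and nfa104 were highest in replicate 1 in all 4 genotypes, 20 of 20 sets of 3 arrays. Replicate 1 was highest in 37.9% of such sets over all members. It was highest in all 4 genotypes at 7 of the 66 members (10.6%) and at 3.56% of all probe sets, and the other 2 members were dmt106 and gte102. The excess of replicate 1 over the mean of replicates 2 and 3 was 0.15 to 0.39 at nfa102, whose signals were 10.20, 9.96 and 10.14 in B73xMo17, 10.36, 10.12 and 9.98 in Mo17xB73, 10.42, 10.16 and 9.89 in B73, and 10.33, 10.15 and 9.94 in Mo17. It was 0.12 to 0.21 at nfa101 and 0.10 to 0.49 at nfa103. At nfa104 it was 0.02 to 0.57 with one probe set and 0.12 to 0.24 with the other. No cause of this date difference was tested.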

How the data were processed

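The deposited values are linear probe set intensity signals on 12 one-colour Affymetrix arrays. The authors made them with MAS5, per the submitters' processing notes, and no version, genome build or normalization between arrays is given in the sources used here. Groups, replicate numbers and shared collection dates were taken from the labels. The 179 control probe sets were left out. Quantile normalization was applied to log2 signals, with no filter on dim probe sets. Group means over all 12 arrays were fitted with limma 3.58.1 in R 4.3.3 (lmFit, eBayes with trend, 8 residual degrees of freedom), two-sided, with Benjamini-Hochberg adjustment over 17555 probe sets. The mid-parent's standard error came from the delta method. Detection calls were not used here, and the number of arrays limits the precision.

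Gene names came from the platform annotation, updated through the RefSeq table of Zm-B73-REFERENCE-NAM-5.0, where 62 genes fit the naming rule. Array values are given for each member probe set called in any comparison, the other probe sets of those genes, the 3 largest inbred differences and the brightest and dimmest members. Members, lists and tests were chosen with earlier results of these data known. Same-numbered replicates share a collection date per the labels, but their deviations were nearly uncorrelated (median r of 0.006 over 18 pairs, against -0.006 over 36 pairs of other numbers). Alternatives were median centring, values as deposited, a replicate block, no trend, a floor and a filter at the 25th percentile, a log2 mid-parent and leaving out each array. The fit was tested on simulated data.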

Additional observations from a re-analysis of the deposited data

How the results depend on the processing

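No called member difference changed sign under any alternative. Between the inbreds, 20 members were called in the reported fit, 4 with the values as deposited and 13 to 20 without single arrays. The share of all probe sets called was 36.0%, 16.9% and 30.7% to 36.2% in the same order. Against the mid-parent the count was 0 in the reported fit, 1 with median centring, 1 with the floor, 2 with the log2 mid-parent and 0 to 1 without single arrays. Against B73 the count was 8, 1 with the values as deposited and 3 to 9 without single arrays. It was 5 without B73 replicate 1 and 3 without B73 replicate 2, where 12.9% and 10.9% of all probe sets were called. Against Mo17 the count was 14, 1 with the values as deposited and 8 to 16 without single arrays. It was 9 without Mo17 replicate 2, and 8 without Mo17 replicate 3 or Mo17xB73 replicate 3. The shares of all probe sets called there were 17.7%, 17% and 20.9%. The reciprocal count was 0 under all alternatives, and the median d/a was 0.0917 (SD 0.14 over 6 hybrid arrays), -0.0524 with the values as deposited, over 5 probe sets, 0.00281 with median centring, 0.158 with the filter, over 3, and 0.04 to 0.14 without single arrays. With the replicate block the counts were 21 between the inbreds, 0 for the reciprocal hybrids, 0 against the mid-parent, 10 against B73 and 14 against Mo17. It ended no call between the inbreds and 1 call against Mo17, that of mez3. Without normalization the median reciprocal difference over all probe sets was 0.12, against 0.01, and the counts over all probe sets were 2974 between the inbreds, 43 between the reciprocal hybrids, 8 against the mid-parent, 929 against B73 and 1331 against Mo17. Against the mid-parent, 12 of all probe sets were called without the trend, 171 with median centring, 153 with the block and 880 with the log2 mid-parent. Between the reciprocal hybrids, 39 were called without the trend and 74 with the floor. Deposited array medians differed by up to 1.63 times, and 6 dim members have differences of uncertain size.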
